A study of Mus musculus with 2 samples.

Results

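Zinc transporters, metallothioneins and the zinc-sensing transcription factor Mtf1 were followed in MIN6, an insulin-secreting mouse insulinoma line that stands in for pancreatic beta cells in culture. The 10 genes were chosen by name, as rows of the deposited count table carrying their symbols, and all 10 were found among 27179 gene rows. They are 4 genes of the SLC30 family (Slc30a1, Slc30a5, Slc30a7 and Slc30a8), 3 of the SLC39 family (Slc39a6, Slc39a7 and Slc39a14), the metallothioneins Mt1 and Mt2, and Mtf1. The C2cd4a-GFP library came from MIN6 cells given C2cd4a as a fusion with GFP (green fluorescent protein), and the Control-GFP library from MIN6 cells given control GFP. Below, under C2cd4a-GFP and under Control-GFP mean in that library. The labels do not say how many cultures gave each library. Their protocol names adenoviral infection at a multiplicity of infection of 100 in medium with 8 µg/ml polybrene, with RNA taken 72 to 96 h later, and its text names the C2cd4a-GFP virus for both samples, so the grouping follows the titles and characteristics. Fetal bovine serum and mercaptoethanol are recorded at the same levels for both libraries. The series asks about the part that C2cd4a, a gene at a diabetes risk locus, plays in insulin secretion. There was 1 poly-A RNA sequencing library per group, so no difference has a replicate check and no replicate test could be fitted.

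Beta cells are among the cells richest in zinc, because insulin is packed in secretory granules as hexamers held together by zinc. SLC30 proteins (ZnT) move zinc out of the cytosol, across the plasma membrane or into organelles and granules, and SLC39 proteins (ZIP) move it into the cytosol. Metallothioneins are small cysteine-rich proteins that bind zinc and copper, and their genes are classic targets of MTF1, which binds metal response elements when free zinc rises.

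The 2 libraries held 30164106 counts (C2cd4a-GFP) and 31039999 counts (Control-GFP). C2cd4a itself had 49238 counts under C2cd4a-GFP and 133 under Control-GFP, which fits the labels, although transcripts of the introduced construct and of the cells' own gene cannot be told apart. The 8 beta-cell markers checked were all present, with a summed level, nearly all of it Ins2, of 75867 CPM (counts scaled to a common library total) under C2cd4a-GFP and 86841 CPM under Control-GFP. Of these markers 7 had a ratio below 1, beside 6486 of 12759 genes tested, and their median log2 ratio was -0.14. With the trends across all genes with exon length and GC content removed that median was -0.03. Pdx1 (0.29), Mafa (0.27), Nkx6-1 (0.24) and Ins2 (0.07) then lay above equality. Iapp (-0.13), Ucn3 (-0.18), Ins1 (-0.83) and Slc2a2 (-0.91) lay below. By the authors' adjusted p, 3 of the 8 fell, none rose and 5 did not pass, beside 6.58% falling over all genes. Those that fell were Ins1 (-0.67, DESeq2 adjusted p = 0.0037), the glucose transporter Slc2a2 (-0.81, adjusted p = 7.6e-14) and the beta-cell peptide Ucn3 (-0.45, adjusted p = 0.000815). Of 6 acinar markers 5 had 0 counts in both libraries, and the summed acinar level was 1.1105 CPM under C2cd4a-GFP and 1.1445 CPM under Control-GFP. Ductal markers summed to 41.1 CPM under C2cd4a-GFP and 53.0 CPM under Control-GFP, with Krt19 and Sox9 at 0 counts in both. Among alpha-cell markers Gcg, the glucagon precursor, had 2292 counts under C2cd4a-GFP and 1511 under Control-GFP, and rose in the authors' deposited table (log2 fold change 0.49, DESeq2 adjusted p = 1.51e-05). The alpha-cell list summed to 79.3 CPM under C2cd4a-GFP and 53.1 CPM under Control-GFP. Delta and PP cell markers (0.359 CPM under C2cd4a-GFP, 0.164 CPM under Control-GFP), mesenchymal markers (0.817 and 1.05 CPM) and endothelial and immune markers (4.28 and 3.73 CPM) summed to little in either library. The part of these markers in the values below was not tested. In bulk RNA, fewer cells of a type and less RNA per cell cannot be told apart.

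The metallothionein coding sequences are shown because Mt1 and Mt2 were the most abundant of the 10 genes and had ratios close to each other. Mt2, Mt1 and the related gene Mt3 lie on the plus strand of mouse chromosome 8 in mm10, Mt3 at chr8:94152607-94154148, Mt2 at chr8:94172618-94173567 and Mt1 at chr8:94179089-94180327, with 5521 bases between Mt2 and Mt1. The sequences below run 5′ to 3′ from the start codon to the last codon before the stop, from GENCODE M21 transcripts, with cysteine codons in capitals.
Mt1: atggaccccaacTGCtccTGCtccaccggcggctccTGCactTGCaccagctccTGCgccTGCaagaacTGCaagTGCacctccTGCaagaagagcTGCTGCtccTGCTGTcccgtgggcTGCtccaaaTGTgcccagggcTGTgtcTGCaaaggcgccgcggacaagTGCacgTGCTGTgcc
Mt2: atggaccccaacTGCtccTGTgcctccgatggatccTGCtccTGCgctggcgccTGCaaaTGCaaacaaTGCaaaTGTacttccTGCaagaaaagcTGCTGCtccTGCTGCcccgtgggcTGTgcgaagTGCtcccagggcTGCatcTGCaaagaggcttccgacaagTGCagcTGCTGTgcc
Mt3: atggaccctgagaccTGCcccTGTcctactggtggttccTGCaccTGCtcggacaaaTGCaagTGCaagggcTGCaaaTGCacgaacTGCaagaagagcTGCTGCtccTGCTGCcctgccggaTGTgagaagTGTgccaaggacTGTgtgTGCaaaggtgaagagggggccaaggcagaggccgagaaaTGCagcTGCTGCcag
Each holds 20 cysteine codons, among 61 codons in Mt1 and Mt2 and 68 in Mt3, and cysteines are the residues through which metallothioneins bind metal. Mt1 and Mt2 have cysteine codons at the same 20 positions and are identical at 145 of 183 coding bases (79.2%), with a longest identical run of 20 bases. No stretch as long as a sequencing read (42 bases) in GENCODE transcripts of Mt1, Mt2 or Mt3 occurs in transcripts of a gene at another locus.

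Sequences before the starts of Mt1, Mt2 and Slc30a1 are shown because all 3 genes are known MTF1 targets in mouse and because both metallothioneins had lower levels under C2cd4a-GFP while Slc30a1 was close to equal. That contrast is not settled, since none of the 3 passed in the authors' deposited table. With the trends across all genes with exon length and GC content removed, the log2 ratios were 0.01 for Mt1, 0.09 for Mt2 and -0.12 for Slc30a1. Each line gives the 250 bases before the RefSeq start on GRCm38.p6, 5′ to 3′ on the gene's plus strand, with the core of the metal response element in capitals where it was found. The Mt1 stretch is chr8:94178839-94179088, the Mt2 stretch chr8:94172368-94172617 and the Slc30a1 stretch chr1:191906531-191906780.
Mt1: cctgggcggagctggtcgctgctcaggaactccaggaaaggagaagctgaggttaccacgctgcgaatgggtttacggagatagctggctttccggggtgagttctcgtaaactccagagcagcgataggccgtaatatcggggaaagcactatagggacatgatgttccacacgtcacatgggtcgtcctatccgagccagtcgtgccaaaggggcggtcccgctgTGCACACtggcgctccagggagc
Mt2: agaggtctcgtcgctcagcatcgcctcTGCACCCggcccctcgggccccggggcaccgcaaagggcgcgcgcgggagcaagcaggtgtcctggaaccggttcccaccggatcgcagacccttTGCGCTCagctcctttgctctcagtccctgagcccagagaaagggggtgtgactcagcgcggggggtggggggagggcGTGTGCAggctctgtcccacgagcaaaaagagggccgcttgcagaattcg
Slc30a1: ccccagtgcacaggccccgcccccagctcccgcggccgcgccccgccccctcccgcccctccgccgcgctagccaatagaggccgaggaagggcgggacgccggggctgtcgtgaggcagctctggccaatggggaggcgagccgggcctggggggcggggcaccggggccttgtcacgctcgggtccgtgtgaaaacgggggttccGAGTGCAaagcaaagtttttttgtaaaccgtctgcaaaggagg
The letters searched were TGCACNC and TGCGCNC on both strands, where matches on opposite strands can overlap, over 300 bases that include the 50 after the start. In that window Mt2 held 4 matches, Mt1 held 3 and Slc30a1 held 2, of which 3, 1 and 1 lie in the bases printed. Of 32851 RefSeq promoters of the same length, 25.7% held at least 1 match, 7.11% at least 2, 1.97% at least 3 and 0.517% at least 4. GENCODE M21 also lists later Mt1 starts, at 94179211 and 94179241, and the 129 bases between its first start and the earlier of these held 4 matches. This stretch overlaps the window of Mt1, and the matches starting at bases 3 and 21 after the RefSeq start lie in both. The 2 counts therefore cannot be added, and no share over promoters was computed for 129 bases. Slc30a5 held 1 match, and Slc30a7, Slc39a7 and Mtf1 held none. Outside the 10 genes, Slc30a4 held 3 matches, as many as Mt1, and Mt3 held 1. Slc39a1 held none, and neither did Slc39a10, a gene of the MTF1-linked list read below, at either start searched. No such sequence was used here for Slc30a8, Slc39a6 and Slc39a14. A match is a run of letters and shows no binding.

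Levels of the 10 genes spanned a wide range and kept nearly the same order in both libraries. Per length, in CPM per kilobase of exon (RPKM), Mt1 stood at 1022 RPKM under C2cd4a-GFP and 1212 RPKM under Control-GFP, rank 25 of all gene rows by its mean. Mt2 stood at 832 and 972 RPKM in the C2cd4a-GFP and Control-GFP libraries, rank 38. Slc30a8 followed at 158 RPKM under C2cd4a-GFP and 171 RPKM under Control-GFP, and Slc39a7 at 99.2 and 103 RPKM. Slc39a6 (37.4 and 34.1 RPKM) and Slc30a5 (34.4 and 33.3 RPKM) came next, again with the C2cd4a-GFP library first. The lowest were Mtf1 (5.94 and 5.52 RPKM), Slc39a14 (6.42 and 4.72 RPKM), Slc30a1 (5.61 and 5.46 RPKM) and Slc30a7 (3.46 and 3.65 RPKM) in the same order of libraries. Among these, Slc39a14 had the highest level in the C2cd4a-GFP library, but stood below Mtf1 and Slc30a1 in the Control-GFP library.

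**Figure D1:**
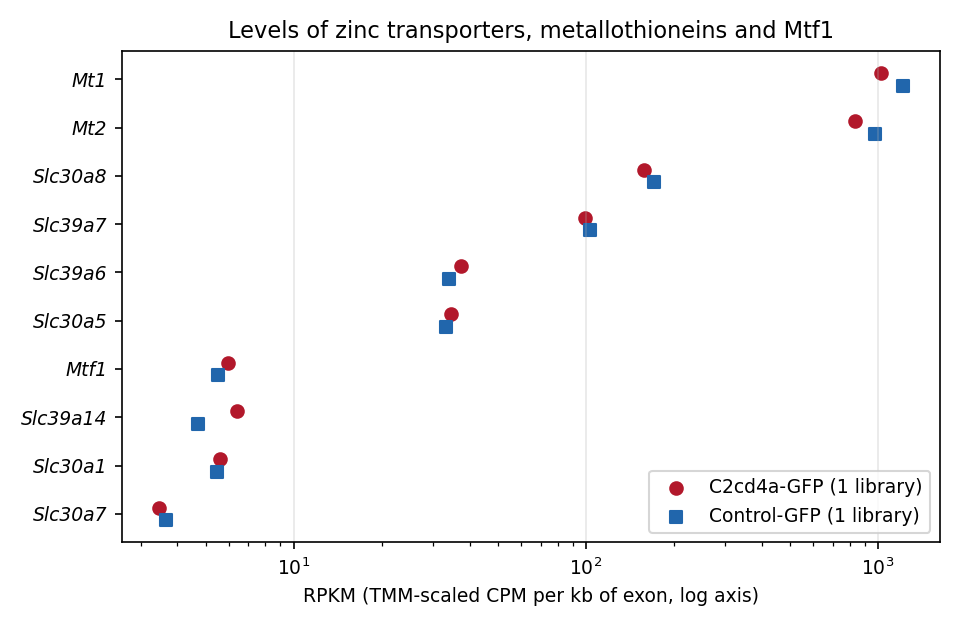
Levels of the 10 genes in RPKM on a log axis, with circles for the C2cd4a-GFP library and squares for the Control-GFP library (1 library each, no error bars). Mt1 and Mt2 lie near 1000 RPKM, and the Slc39a14 points, at 6.42 and 4.72 RPKM, are visibly apart while most other pairs nearly coincide.

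Between the libraries, log2 ratios of the 10 genes (C2cd4a-GFP over Control-GFP) ran from -0.25 for Mt1 to 0.45 for Slc39a14, the 1 gene that rose in the authors' deposited table. The size rule asked for a ratio of 1.5 or more either way, with an interval that did not include equality, among genes averaging 1 CPM or more. None of the 10 met it in either direction, as against 4.23% upward and 4.23% downward, together 8.46%, of 12759 genes. With 10 genes, such a share would be 0 or 1 genes, so the count of 0 says nothing particular about them. At a milder threshold of 0.32 on the log2 scale, met by 27.4% of all genes either way, Slc39a14 was the 1 gene that passed. The authors' deposited table rests on a number of libraries that no source used here states. By its DESeq2 adjusted p of under 0.05, Slc39a14 rose, none of the 10 fell and 9 did not pass, against 7.00% rising and 6.58% falling, together 13.6%, of 14619 genes, and 1 of 10 is near that share. Of the 10 genes 5 had a ratio above 1 and 5 below. Their median log2 ratio was -0.01, the same as the -0.01 over all genes tested, and 7 of them lay between the quartiles of all genes (-0.21 and 0.21). In the order of ratios, neighbours had overlapping intervals except Mt2 with Slc30a8 and Slc39a6 with Slc39a14. The 95% exact interval given in parentheses after a log2 ratio covers counting error only. That interval excluded equal levels for 6 of the 10 genes, 2 upward and 4 downward, a share near the 63.5% of all genes tested.

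Of the transporters that carry zinc out of the cytosol, Slc30a8 was per length the main transcript in both libraries. It encodes ZnT8, which loads zinc into insulin granules and is itself the product of a human type 2 diabetes risk gene. Slc30a8 (gene ID 239436, chr15:52295553-52335733, plus strand, mm10) had 9211 counts under C2cd4a-GFP and 9965 under Control-GFP. These correspond to 301 CPM under C2cd4a-GFP and 326 CPM under Control-GFP, a difference of -7.68% and a ratio of -0.12 on the log2 scale (-0.16 to -0.07). The authors' deposited table gives -0.18, short of its threshold (DESeq2 adjusted p = 0.22). With the trend across all genes with exon length removed the log2 ratio of Slc30a8 was -0.04. It was -0.16 with the trends with length and GC content both removed. Slc30a8 made up 65.7% of the summed RPKM of the SLC30 family under C2cd4a-GFP and 68.9% under Control-GFP. For comparison, the insulin gene Ins2 had a log2 ratio of -0.20 (-0.20 to -0.20), which turned to 0.07 with the trends across all genes with exon length and GC content removed, and which the authors' deposited table gives as -0.07 (DESeq2 adjusted p = 0.824). Ins1 stood at -0.91 (-0.92 to -0.89), and at -0.83 with those trends removed.

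The exporters of the early secretory pathway were close to equal in the pair. Slc30a5 (gene ID 69048, chr13:100802648-100833427, minus strand), which supplies zinc to the Golgi and vesicles as a heteromer with Slc30a6, had 3352 counts under C2cd4a-GFP and 3233 under Control-GFP. This is a log2 ratio of 0.05 (-0.02 to 0.12), where the authors' deposited table gives -0.02 (DESeq2 adjusted p = 0.925), and it was -0.11 after subtraction of the trends that all genes showed with exon length and GC content. Its partner Slc30a6 had 476 counts under C2cd4a-GFP and 441 under Control-GFP, a log2 ratio of 0.11 (-0.08 to 0.30). Slc30a7 (gene ID 66500, chr3:115938973-116007406, minus strand), which acts in the Golgi as a homodimer, had 955 counts under C2cd4a-GFP and 1008 under Control-GFP. The ratio stood at -0.08 (-0.21 to 0.05) on the log2 scale, and the authors' deposited table gives -0.06 (DESeq2 adjusted p = 0.798). At 9020 bases of exon it was the longest of the 10 genes, and after the same subtraction its value was -0.41, the lowest of the 10. Of its exon bases 12.9% lie opposite the GENCODE gene Gm6649 and 7.06% opposite Gm43106, and no source used here says if strand was used in counting.

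Slc30a1 (gene ID 22782, chr1:191906781-191913247, plus strand) encodes the exporter of the plasma membrane. It had 899 counts under C2cd4a-GFP and 873 under Control-GFP. The ratio was 0.04 (-0.10 to 0.18) in log2, against 0.05 in the authors' deposited table (DESeq2 adjusted p = 0.828) and -0.12 with the trends subtracted. The difference is within counting error, and the interval leaves room for differences of up to 0.18 on the log2 scale. The 4 SLC30 genes together had 14417 counts under C2cd4a-GFP and 15079 under Control-GFP, a log2 ratio of -0.07 (-0.10 to -0.03).

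Among the importers, Slc39a14 was the 1 gene of the 10 that rose. It encodes ZIP14, a plasma membrane transporter that also carries iron and manganese. Slc39a14 (gene ID 213053, chr14:70303467-70351424, minus strand) had 1024 counts, or 33.4 CPM, under C2cd4a-GFP and 751 counts, or 24.6 CPM, under Control-GFP. The C2cd4a-GFP library was thus 1.36-fold higher, a log2 ratio of 0.45 (0.31 to 0.58), below the 1.5-fold rule. The authors' deposited table gives the normalized values 1015 for C2cd4a-GFP and 745 for Control-GFP, whose log2 ratio it gives as 0.45 (DESeq2 adjusted p = 0.00302). Over all scalings and trend corrections tried, its log2 ratio ran from 0.34 to 0.49. Next in the order of ratios was Slc39a6 at 0.13.

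The more abundant importers were closer to equality. Slc39a7 (gene ID 14977, chr17:34028266-34031690, minus strand), which releases zinc from the endoplasmic reticulum and Golgi, had 7265 counts under C2cd4a-GFP and 7550 under Control-GFP. Its log2 ratio was -0.06 (-0.10 to -0.01), while the authors' deposited table gives 0.03 (DESeq2 adjusted p = 0.903), and the value was 0.15 once the trends with length and GC were removed. GENCODE places Gm20427 on the same strand over 83.5% of the exon length of Slc39a7, so the value of Slc39a7 is uncertain where the counting split or dropped their reads. Slc39a6 (gene ID 106957, chr18:24579881-24603817, minus strand), a plasma membrane importer, had 4451 counts under C2cd4a-GFP and 4051 under Control-GFP. In log2 the ratio was 0.13 (0.07 to 0.20), against 0.14 without passing in the authors' deposited table (DESeq2 adjusted p = 0.495). The 3 importers together stood at 0.04 (0.01 to 0.08) in log2, with 12740 counts under C2cd4a-GFP and 12352 under Control-GFP. Per length, Slc39a7 made up 45.1% of the SLC39 family's summed RPKM under C2cd4a-GFP and 45.9% under Control-GFP, and Slc39a14 made up 2.92% and 2.10%.

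Both metallothioneins had lower values under C2cd4a-GFP, but neither passed in the authors' deposited table. Mt1 (gene ID 17748) had 16952 counts under C2cd4a-GFP and 20091 under Control-GFP, or 554 against 657 CPM. This gave a log2 ratio of -0.25 (-0.28 to -0.22), beside -0.23 in the authors' deposited table (DESeq2 adjusted p = 0.139). Mt2 (gene ID 17750) had 14158 counts under C2cd4a-GFP and 16535 under Control-GFP, or 462 against 541 CPM. The ratio was close to that of Mt1, -0.23 (-0.26 to -0.19), with -0.13 in the authors' deposited table (DESeq2 adjusted p = 0.549). The intervals of Mt1 and Mt2 overlapped each other. Their proportion stayed much the same, with Mt1 at 52.7% of the metallothionein RPKM under C2cd4a-GFP and 52.5% under Control-GFP, and Mt2 at 42.9% and 42.1%. GENCODE lists the antisense gene Gm45774 across 72.1% of the exon length of Mt2, on the other strand.

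The metallothioneins are also the shortest of the 10 genes, with 542 bases of exon for Mt1 and 556 for Mt2 against a median of 2877 over all genes tested. Across all genes tested with a GC value, the log2 ratio was higher in longer genes (Spearman's rho = 0.347 with exon length) and lower at high GC (rho = -0.471), as a description across genes that share 2 libraries. Removing the trend with length alone left Mt1 at -0.05 and Mt2 at -0.03, and removing both trends left Mt1 at 0.01 and Mt2 at 0.09. With both trends removed neither metallothionein therefore stood below equality, whereas Slc39a14 stayed higher under C2cd4a-GFP (0.42). The part of length and GC in the metallothionein difference was not tested further.

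**Figure D2:**
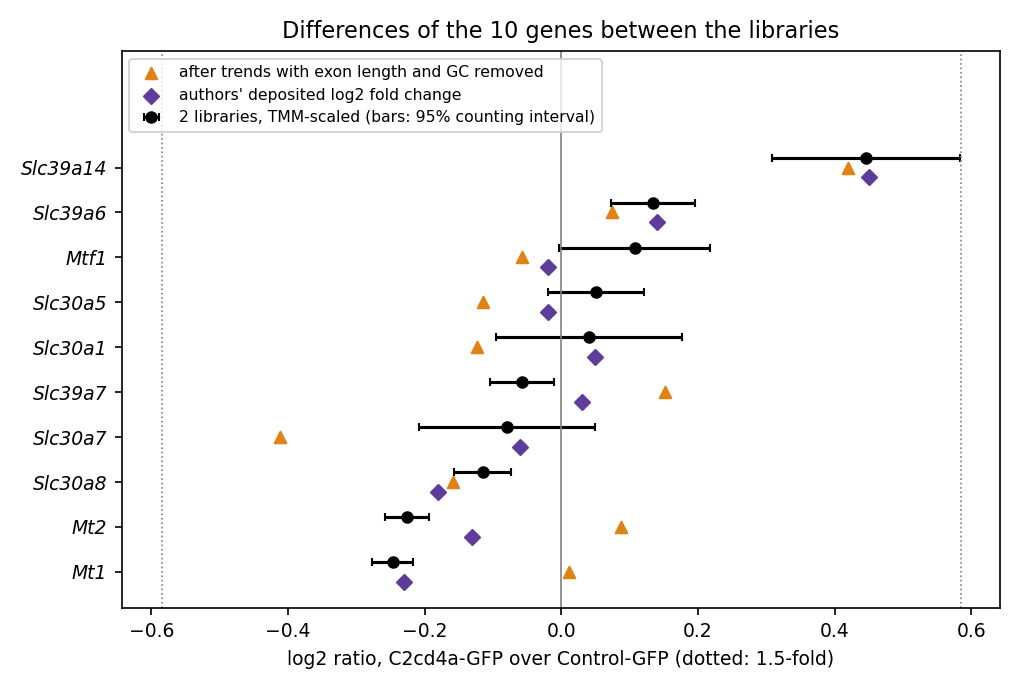
Log2 ratio of C2cd4a-GFP over Control-GFP for each of the 10 genes, with circles for the 2 libraries (bars are 95% counting intervals), triangles after removal of the trends with exon length and GC, and diamonds for the authors' deposited log2 fold change. All 3 symbols of Slc39a14 lie between 0.42 and 0.45, whereas the Mt1 and Mt2 triangles lie at 0.01 and 0.09, to the right of their circles at -0.25 and -0.23.

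**Figure D3:**
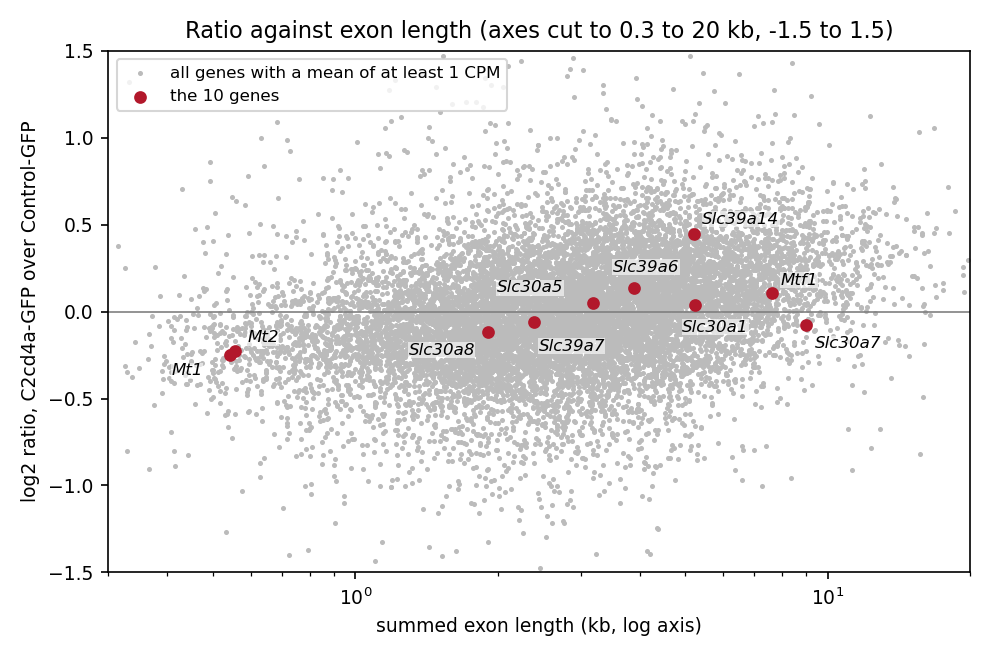
Log2 ratio against summed exon length in kb (log axis) for all genes tested (grey) and the 10 genes (red, labelled). Mt1 and Mt2 sit at the short end at -0.25 and -0.23, and Slc39a14 stands above the other long genes of the set at 0.45.

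Mtf1, the zinc sensor itself, was expressed at a low level and did not differ beyond counting error. Mtf1 (gene ID 17764, chr4:124802549-124849800, plus strand) had 1388 counts under C2cd4a-GFP and 1287 under Control-GFP. Its log2 ratio was 0.11 (-0.00 to 0.22), and -0.06 with both trends removed. The authors' deposited table gives -0.02 (DESeq2 adjusted p = 0.952). Of its exon bases 9.45% lie opposite 1110065P20Rik.

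A list of 9 genes linked to MTF1 in mouse, 3 of them among the 10, had 3 members with a ratio above 1 and 6 below, with a median log2 ratio of -0.23 beside -0.01 over all genes. That median is the value of Mt2 itself, with Mt1 next below it, so it adds nothing to the metallothionein ratios. The list ran from -0.86 to 0.24. Its genes were not sorted by whether MTF1 raises or lowers them, so the median gives no reading of MTF1 activity. Of the 9, the authors' deposited table has 1 that fell and none that rose, and the size rule called the same gene, a share near the 13.6% and 8.46% of all genes called in either direction. That gene was Pgf, a placental growth factor, with 37 counts under C2cd4a-GFP and 67 under Control-GFP, or -0.86 (-1.48 to -0.26) in log2, and -0.78 in the authors' deposited table (DESeq2 adjusted p = 0.0331). Mt1 was the most abundant of the list per length. Once the trends with length and GC were removed the list's median was -0.08.

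Beyond the 10 genes, 3 further zinc genes passed in the authors' deposited table, 2 that rose and 1 that fell. All 28 SLC30, SLC39 and metallothionein genes were found in the table, and 21 of them averaged 1 CPM or more, 9 of the 10 genes above (Mtf1 belongs to no family) and 12 others. Their median log2 ratio was 0.04, with 2 genes higher by the size rule and none lower, beside 4.23% each way over all genes, and it was 0.01 with both trends removed. By family the median was 0.04 over 7 SLC30 genes, turning to -0.12 with both trends removed, and 0.10 over 11 SLC39 genes, or 0.07 with both removed. Over the 3 metallothioneins tested it was -0.25, or 0.01 with both trends removed. The authors' deposited table gives an adjusted p for 23 of the 28, of which 3 rose, 1 fell and 19 did not pass, beside 7.00% rising and 6.58% falling over all genes. Besides Slc39a14, the genes that rose were Slc30a4 and Slc39a4, and the gene that fell was Slc39a1.

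Slc30a4, an exporter into endosomal and secretory vesicles whose loss in mice makes milk poor in zinc, had 1798 counts under C2cd4a-GFP and 1156 under Control-GFP. With a log2 ratio of 0.64 (0.53 to 0.74) it met the size rule, and it rose by 0.50 in the authors' deposited table (DESeq2 adjusted p = 0.000121). Its value was 0.36 once the trends with length and GC were removed. Slc30a4 made up 4.47% of the SLC30 family's RPKM under C2cd4a-GFP and 2.78% under Control-GFP. Slc39a4, the zinc importer of the intestine, was scarce in both, with 69 counts under C2cd4a-GFP and 40 under Control-GFP. On so few counts the log2 ratio was 0.78 (0.20 to 1.38), where the authors' deposited table gives 0.87 (DESeq2 adjusted p = 0.012).

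Slc39a1, a plasma membrane importer, had 1141 counts under C2cd4a-GFP and 1616 under Control-GFP, or -0.50 (-0.61 to -0.39) in log2. It fell in the authors' deposited table (-0.46, DESeq2 adjusted p = 0.00142). Of its read-length stretches 23.7% also occur at other loci, among them its pseudogene Slc39a1-ps, so its counts are uncertain to that extent. Mt3, a metallothionein first known from brain, had 1390 counts under C2cd4a-GFP and 2065 under Control-GFP. Its log2 ratio was -0.57 (-0.67 to -0.47), just short of the 1.5-fold rule (0.58 on the log2 scale), and the authors' deposited table gives -0.40 without passing (DESeq2 adjusted p = 0.125). With the trends removed Mt3 stood at -0.19, lower than Mt1 and Mt2. Slc30a10, Slc39a12 and Mt4 were at 0 counts in each library, a count that leaves room for at most 0.098 CPM under C2cd4a-GFP and 0.0981 CPM under Control-GFP. The other family genes tested ran from -0.28 for Slc39a13 to 0.25 for Slc39a8, and none of these passed in the authors' deposited table.

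**Figure D4:**
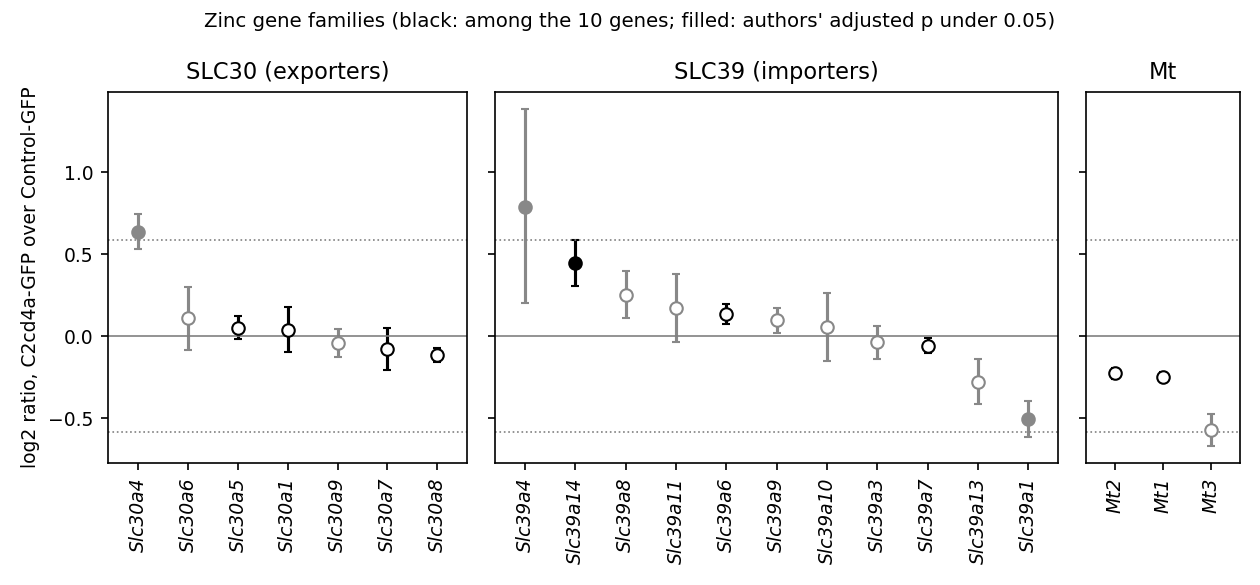
Log2 ratio of C2cd4a-GFP over Control-GFP with 95% counting intervals for the 21 zinc family genes tested, in black for those among the 10 genes and in grey for the others, filled where the authors' adjusted p was under 0.05. Dotted lines mark 1.5-fold, passed by Slc30a4 (0.64) and Slc39a4 (0.78), while Slc39a14 (0.45) and Slc39a1 (-0.50) are filled but lie inside the lines.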

How the data were processed

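Poly-A RNA libraries of MIN6 cells were read as 42 bp pairs, per the labels' protocols. STAR 2.5.2b, featureCounts, Subread 1.5.2, DESeq2 1.14.1 and the build mm10 appear in the submitters' processing notes with no roles given. The authors deposited whole-number counts per gene with exon coordinates and exon length per the file headers, beside their own log2 fold change, p-value and adjusted p-value. They also deposited a rounded normalized value for each gene in each condition, treated here as a score. How many libraries stand behind the authors' p-values, and the strand setting, were not given in the sources used here.

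Counts were scaled by TMM (edgeR 4.0.16, R 4.3.3; factors 1.015 and 0.985) to CPM, and divided by exon length for RPKM. Ratios are C2cd4a-GFP over Control-GFP, with exact Clopper-Pearson 95% intervals conditional on the summed counts. No molecular identifiers are named, so intervals and floors (3 counts) cover counting error only. Genes averaging 1 CPM or more were called by size at 1.5-fold or more either way if the interval excluded equality. Rose and fell mean that the authors' deposited adjusted p was under 0.05. The named genes were all 10 chosen genes, and from each pathway list the genes called by size or by the authors and the most abundant one per length. The genes and lists were chosen with earlier results of these data known.

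Trends with exon length and GC content (longest GENCODE M21 transcript, 95.7% of genes tested) were removed with lowess curves of span 0.3 (statsmodels 0.14.6). Of 27179 rows, 874 with a date or no symbol were looked up by gene ID. The calculation was tested on simulated Poisson counts. Alternatives covered scaling (total counts, upper quartile and size factors of DESeq2 1.42.0), thinning to equal totals, a prior count of 2, the filter, the fold, the trends and the authors' normalized values.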

Additional observations from a re-analysis of the deposited data

How the results depend on the processing

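With 1 library per group no replicate could be left out. No paired analysis was possible because each group has 1 library. Of 80 values of the 10 ratios under other settings, 59 stayed within the gene's counting interval, and 4 genes (Slc30a7, Slc30a8, Slc39a6 and Slc39a14) kept their direction under every setting. Of the 69 counts and medians, 61 stayed near their values. The number of the 10 genes higher became 1 (Slc39a14) at a log2 ratio of at least 0.32 (met by 27.4% of all genes either way) and stayed 0 elsewhere. The number of zinc family genes higher, 2, became 1 with the length trend removed, with both trends removed, with the authors' normalized values and at a minimum of 5 CPM. It became 0 at a ratio of at least 2 and 3 at a log2 ratio of at least 0.32. The number lower, 0, became 1 with upper-quartile scaling and 2 at a log2 ratio of at least 0.32. No cause was tested beyond what each setting does by construction. Scaling shifted the median of all genes by at most 0.04 (log2, total counts).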

Other observations

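Genes of other metals were read beside the zinc genes. For the calls below, the authors' deposited table has 7.00% of all genes rising and 6.58% falling. Among 12 iron genes, Tfrc, the transferrin receptor, had 7004 counts under C2cd4a-GFP and 10926 under Control-GFP, a log2 ratio of -0.64 (-0.69 to -0.60), and fell in the authors' deposited table (-0.71, DESeq2 adjusted p = 1.76e-11). Ireb2, an iron-responsive RNA-binding protein, rose there (0.31, DESeq2 adjusted p = 0.0359), with a ratio in the pair of 0.34 (0.25 to 0.42), and the other 10 did not pass. Ftl1, the ferritin light chain and most abundant of the list per length, was at -0.35 (-0.37 to -0.33). The list's median was -0.01, the same as over all genes tested. With the trends of length and GC removed Tfrc stood at -0.93 and Ireb2 at 0.01.

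Among 10 copper genes, Atp7a, a copper-exporting pump, had 1661 counts under C2cd4a-GFP and 1199 under Control-GFP and rose in the authors' deposited table (0.43, DESeq2 adjusted p = 0.0443), with a ratio in the pair of 0.47 (0.36 to 0.58) and of 0.18 once the trends were removed. Atp7b, its paralog, had 51 counts under C2cd4a-GFP and 21 under Control-GFP, a log2 ratio of 1.28 (0.52 to 2.09), and did not pass there (DESeq2 adjusted p = 0.104). Commd1, the most abundant per length, was at -0.19, and the list's median was -0.07. Of 8 glucocorticoid-responsive genes, a class of signal known to raise mouse metallothioneins, 7 passed the filter with a median of -0.07. Of these 7, 3 had a ratio above 1 and 4 below, and the median was -0.02 once the trends were removed. The authors' deposited table has Per1 (-0.29, DESeq2 adjusted p = 0.0433) and Dusp1 (-0.27, DESeq2 adjusted p = 0.036) falling and none rising. Over all genes the shares were 6.58% falling and 7.00% rising. Fkbp5, the most abundant per length, was at -0.07 (-0.13 to -0.01).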
